A study of Mus musculus with 5 samples.

Results

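The genes described here encode the nuclear subunits of the mitochondrial respiratory chain and of ATP synthase. Members were taken by gene symbol, as every row whose whole symbol matched a pattern of mouse subunit names. The patterns were Nduf a, b, c, s or v with a number for NADH dehydrogenase and Sdha to Sdhd for succinate dehydrogenase. They were Uqcr with any ending and Cyc1 for the cytochrome bc1 complex, and Atp5 with any ending for ATP synthase. For cytochrome c oxidase they were Cox4 to Cox8 with a letter and at most 1 further digit. Longer symbols such as Cox7a2l and Ndufa4l2 did not match. This gave 83 genes of the 23478 symbols in the count table, and 80 of the 15298 genes with enough counts to be tested. By complex, 36 members belonged to complex I, 4 to complex II, 9 to complex III, 17 to complex IV and 17 to complex V. RNA was sequenced from GFP-positive lung cells sorted on P6 in 5 libraries, 2 control and 3 Igf1r-deleted. Control cells came from Rosa-EGFP, Igf1r Flox/Wildtype, Gli1creER+ mice, which can lose 1 copy of Igf1r, and Igf1r-deleted cells from Rosa-EGFP, Igf1r Flox/Flox, Gli1creER+ mice, which can lose 2. Pups of both genotypes carried the Cre driver and the reporter and were given 100 µg tamoxifen each on P0 and on P1, so the drug and the recombinase were shared by both groups. Gli1-CreERT2 is active in cells that express Gli1, mostly lung fibroblasts, so GFP marked those cells and their progeny. The number of pups behind each library was not given in the sources used here.

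The respiratory chain lies in the inner mitochondrial membrane. Complexes I and II take electrons from NADH and succinate and pass them to ubiquinone, complex III passes them on to cytochrome c, and complex IV hands them to oxygen. Complexes I, III and IV pump protons as they do so, and complex V, the ATP synthase, lets the protons flow back and makes ATP. Complex II is built from nuclear genes alone, whereas the other complexes also hold subunits encoded in mitochondrial DNA. IGF1 receptor signaling through AKT and mTOR is known to favor growth and mitochondrial activity in many cell types. In the neonatal lung, myofibroblasts and lipofibroblasts take part in the formation of alveolar septa.

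The symbols follow an older nomenclature, and the rule is not a perfect list of subunits. Atp5s (a coupling factor homolog) and Atp5sl (annotated today as Dmac2, a complex I assembly factor) match by name but are not parts of the synthase. Ndufa4 was first purified with complex I and is now placed in complex IV; it is counted here under complex I, as its symbol directs. Other true subunits or carriers lie outside the name pattern, among them Ndufab1 (the mitochondrial acyl carrier protein) and Cycs (cytochrome c), and they are described separately. The mitochondrially encoded subunits were not analysed here.

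Promoters of respiratory genes are known for binding sites of NRF1, GABPA (an ETS factor), YY1 and the estrogen-related receptors, so the sequence around the start of each member was searched for short forms of these sites. RefSeq promoter windows of GRCm38.p6, from 250 bases before to 50 bases after the start of transcription, were found for 68 of the 83 members. For a member this was the window nearest the start of its transcript. The background was chosen otherwise, as the first window listed for each of 27025 gene symbols. Tested genes were found in it by exact symbol, which gave 11269 windows. The NRF1 letters CGCATGCG or CGCACGCG, on either strand, stood in 16 of the 68 windows (23.5%), in 4.3% of all 27025 mouse windows and in 8.2% of the windows of tested genes. CCGGAAG, the ETS core bound by GABPA, was also found in 16 member windows (23.5%), against 9.1% of all windows and 16.2% of those of tested genes. AAGATGGC, for YY1, was found in 11 (16.2%, against 2.9% and 4.2%), and CAAGGTCA, for the estrogen-related receptors, in 4 (5.9%, against 1.5% and 1.1%). A match describes letters in the window and not binding. Examples with the NRF1 letters from each complex are shown here, 30 bases each, 5′ to 3′ on the strand of the gene, with the match in capitals:
Ndufa6 (complex I, chr15:82354249-82354278, minus strand): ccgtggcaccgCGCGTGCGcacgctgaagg
Ndufa7 (complex I, chr17:33824554-33824583, plus strand): tctcgcgagacCGCACGCGgtacccaggaa
Sdhd (complex II, chr9:50603909-50603938, minus strand): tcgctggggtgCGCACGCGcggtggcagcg
Uqcr11 (complex III, chr10:80406808-80406837, minus strand): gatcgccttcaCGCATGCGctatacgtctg
Cox6a1 (complex IV, chr5:115349101-115349130, minus strand): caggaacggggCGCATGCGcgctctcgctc
Atp5g2 (complex V, chr15:102671070-102671099, minus strand): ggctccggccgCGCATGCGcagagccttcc
Atp5j (complex V, chr16:84835105-84835134, minus strand): aggccagaataCGCATGCGtacagtgcagt
Atp5k (complex V, chr5:108434430-108434459, minus strand): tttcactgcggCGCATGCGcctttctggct
Counted from the RefSeq start, the match lies 24 bases after it in Ndufa6. In the other 7 genes the match lies 5 to 161 bases before the RefSeq start. Starts differ between annotations. By the GENCODE M21 gene bounds, the matches of Ndufa6, Uqcr11, Atp5g2, Atp5j and Atp5k lie within the gene.

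Atp5g1, Atp5g2 and Atp5g3 encode the same mature protein, subunit c of the rotating ring of ATP synthase, behind different mitochondrial targeting peptides. Their sequences are shown because reads can be assigned among the 3 genes only where the bases differ. Over the 225 coding bases of the mature protein, Atp5g1 and Atp5g2 are 84.9% identical, Atp5g1 and Atp5g3 80.0%, and Atp5g2 and Atp5g3 78.7%. The last 60 coding bases before the stop codon read as follows, with capitals where Atp5g1 or Atp5g2 differs from Atp5g3 (12 and 17 positions):
Atp5g1 (chromosome 11): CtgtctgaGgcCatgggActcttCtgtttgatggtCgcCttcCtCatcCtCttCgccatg
Atp5g2 (chromosome 15): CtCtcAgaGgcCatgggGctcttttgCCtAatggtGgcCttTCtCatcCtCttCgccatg
Atp5g3 (chromosome 2): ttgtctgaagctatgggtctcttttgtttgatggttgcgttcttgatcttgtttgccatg

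Levels are given as CPM, counts relative to library sizes that were scaled by edgeR's TMM factors, and differences as log2 fold changes of Igf1r-deleted over control with their standard errors (SE). Libraries held 35116766 to 37597857 counts. Igf1r stood at 324 CPM in both control libraries and at 140, 177 and 194 CPM in the Igf1r-deleted libraries, a log2 fold change of -0.93 (SE 0.14, unadjusted p = 0.000301, adjusted p = 0.354 with edgeR's quasi-likelihood test and Benjamini-Hochberg adjustment over all tested genes). All 3 were below both controls. The sorted cells carried fibroblast markers at high level, such as Npnt at 4040 to 5035 CPM and Pdgfra at 480 to 684 CPM. Markers of other cells were also present. Summed over 7 hematopoietic markers the level was 579 and 448 CPM in controls and 472, 369 and 220 CPM in Igf1r-deleted libraries, and all 7 had a log2 fold change below 0. The sum over 8 epithelial markers was 774 and 760 CPM, compared with 556, 789 and 350, again with all 8 below 0, and the sum over 7 endothelial markers was 463 and 457 CPM, compared with 433, 680 and 225. Of 6 erythroid markers 1 was tested, and Hba-a2, Hbb-bs and Hbb-bt had 0 counts in every library. Xist and Y-linked counts read both control libraries and Igf1r-deleted replicate 2 as male and Igf1r-deleted replicates 1 and 3 as female. The part of cell mixture or sex in the values below was not tested beyond the fit with sex given later, and in sorted bulk RNA fewer cells of a type and less RNA per cell cannot be told apart.

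Most subunit genes were slightly lower in Igf1r-deleted cells, and no single gene passed the test. The log2 fold change was below 0 for 58 of 80 members (72.5%), against 47.7% of all tested genes, and above 0 for 22. On library totals in place of TMM factors, 65.0% of members and 37.3% of all genes were below 0, with medians of -0.05 and 0.09. With a trend on transcript length and GC content removed, 50 of 80 members and 50% of all genes were below 0, and the median of members was -0.05. The median over members was -0.12, beside 0.01 over all tested genes, and the members ranged from -0.85 (Cox8b) to 0.35 (Cox4i2). With edgeR, 0 of 80 members had an adjusted p under 0.05, as did 0% of all tested genes, and the lowest adjusted p was 0.354. At an unadjusted p under 0.05 there were 6 members (7.5%), against 12.4% of all genes. All 6 were lower, for which the share over all genes was 6.75%. DESeq2's Wald test also gave 0 members at an adjusted p under 0.05, where it called 1.31% of all genes, and 7 at an unadjusted p under 0.05 (8.75%), against 13.2% of all genes. The share past the unadjusted threshold was thus below that of all genes, and the share with a fold change below 0 was above it.

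The size of the differences was small and, for many members, bounded. A log2 fold change of 0.5 or more in size, the limit set in the study, was reached by 4 of 80 members (5.0%), namely Ndufa6, Cox7a1, Cox8b and Atp5k, against 17.2% of all tested genes. The 95% interval of the fold change lay wholly within 0.5 of 0 on the log2 scale for 40 of the 80, against 38.1% of all genes. It lay within 1 of 0 for 74 of the 80, against 10783 of all 15298 tested genes. For 18 members (22.5%) both controls were above all 3 Igf1r-deleted libraries, against 14.9% of all genes, and for 5 (6.25%) they were below all 3, against 16%. The other 57 members had overlapping groups.

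**Figure D1:**
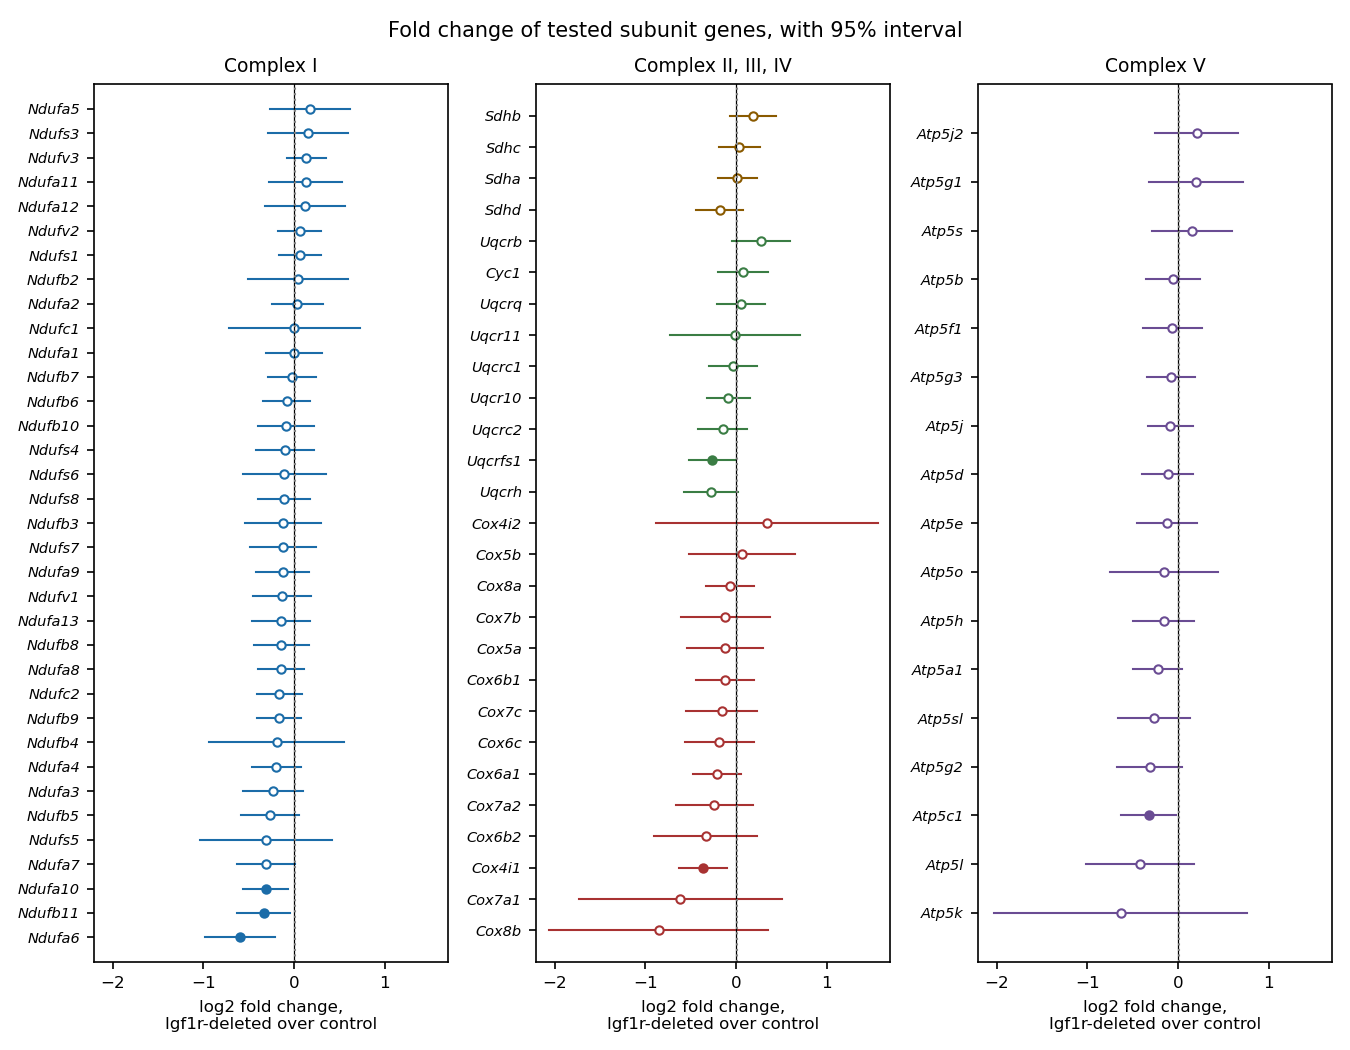
Log2 fold change (Igf1r-deleted over control) of 79 of the 80 tested subunit genes, grouped by complex, with bars for the 95% interval derived from edgeR's test. Filled points are the 6 genes with an unadjusted p under 0.05, all lower; the solid line is 0 and the dotted line the median of all tested genes at 0.01. Most points sit a little left of 0, and the intervals of Cox4i2, Cox7a1, Cox8b and Atp5k are wide.

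By the median over members, the shift was carried by 2 of the 3 Igf1r-deleted libraries. For each member the level in each library was set against the mean of both controls on the log2 CPM scale. The median of these differences over the 80 members was 0.03 in control replicate 1 and -0.03 in control replicate 2, 0.02 in Igf1r-deleted replicate 1, -0.19 in replicate 2 and -0.19 in replicate 3. Over all tested genes it stayed between -0.001 and 0.021 in every library. By this median Igf1r-deleted replicate 1 stood with the controls. Its mean log2 CPM over members was 4.208, beside 4.271 and 4.211 in controls. The mean of replicate 1 was below both controls for complexes IV and V, between them for complex I and above both for complexes II and III. Its Igf1r level was the lowest of all, and a relation between the 2 was not tested. When Igf1r-deleted replicate 1 was left out, 66 of 80 members (82.5%) were lower, against 48.5% of all genes, with medians of -0.19 and 0.01. In that fit 17 members (21.2%) had an unadjusted p under 0.05, beside 21.0% of all genes. Without replicate 2 or without replicate 3 the number was 2 (2.5%), beside 6.58% and 7.35% of all genes. Without control replicate 1 it was 1 (Ndufa6, 1.25%), beside 2.76%, and without control replicate 2 it was 6 (7.41%), beside 14.8%. None of these fits gave a member an adjusted p under 0.05. A fit with the sex of the library as a term was added after the data were seen. Its genotype difference rests on the male libraries, which are both controls and Igf1r-deleted replicate 2 alone. In that fit 65 members (81.2%) were lower with a median of -0.20, near the -0.19 of that replicate. Over all genes 48.5% were lower in the fit with sex, with a median of 0.01. Sums of some marker lists set Igf1r-deleted replicates 2 and 3 apart, and others did not. For epithelial and for endothelial markers, replicate 2 had the highest sum of all libraries and replicate 3 the lowest. The sum of 6 pericyte markers was 599 and 533 CPM in replicates 2 and 3, beside 561 and 606 CPM in controls and 604 CPM in replicate 1. Replicates 2 and 3 had the lowest sums of hematopoietic markers. They also had the highest sums of 7 myofibroblast markers, 4845 and 4602 CPM beside 4097 and 4305 CPM in controls and 4263 CPM in replicate 1, and the lowest sums of 6 lipofibroblast and matrix fibroblast markers, 5758 and 6140 CPM beside 6852, 7174 and 6394 CPM. Within the myofibroblast list 3 of 7 were lower, Hhip (-0.47, SE 0.20), Aspn (-0.23, SE 0.15) and Pdgfra (-0.18, SE 0.15), and 4 were higher. Within the lipofibroblast and matrix fibroblast list 5 of 6 were lower. The contractile genes Acta2 (log2 fold change 0.78, SE 0.23) and Tagln (0.59, SE 0.22) were above both controls in every deleted library, and Tcf21, a transcription factor of lipofibroblasts, was below both (-0.57, SE 0.16). Acta2, Tagln and Tcf21 did not pass the adjusted test, and they were chosen with their values in view. The part of these markers in the subunit values was not tested.

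**Figure D2:**
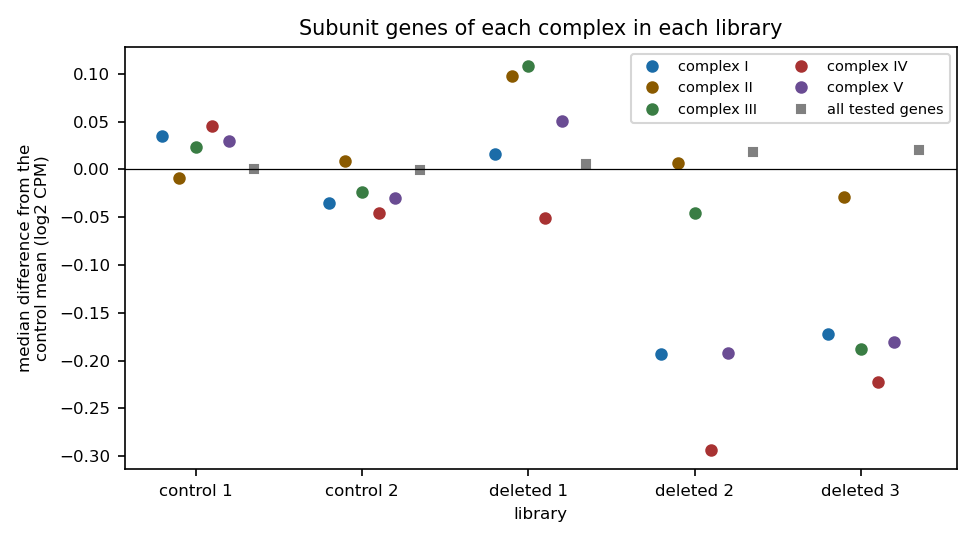
Median difference from the control mean (log2 CPM) over the tested subunit genes of each complex, for each of the 5 libraries, with all tested genes as grey squares. Igf1r-deleted replicate 1 lies near or above the controls for complexes I, II, III and V, while replicates 2 and 3 lie below them for complexes I, III, IV and V, and complex II stays near 0 in both.

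Complex I is the largest enzyme of the chain, with a core that carries flavin and iron-sulfur clusters and a shell of accessory subunits that are needed for its assembly and stability. Of its 36 members, 25 were lower and 11 higher, with a median log2 fold change of -0.12 and a range of -0.59 to 0.17. The 7 nuclear core subunits gave 4 lower and 3 higher, median -0.11, and the 29 accessory subunits 21 lower and 8 higher, median -0.12.

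Ndufa6, an accessory subunit of the LYR family that holds an acyl carrier protein on the matrix arm, had the lowest unadjusted p of all members. It lies on chromosome 15 from 82350140 to 82354322 of mm10 in 3 exons. Its level was 41.2 and 37.3 CPM in controls and 32.1, 22.6 and 23.4 CPM in Igf1r-deleted libraries. All 3 were below both controls, and replicate 1 was nearest to them. The log2 fold change was -0.59 (SE 0.17, unadjusted p = 0.00831, adjusted p = 0.354 with edgeR) between means of 26.0 ± 5.28 CPM (SD, n = 3) and 39.2 ± 2.75 CPM (SD, n = 2). Across the alternatives its log2 fold change ran from -0.80 to -0.49 and its adjusted p from 0.0671 to 1.

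Ndufa10, an accessory subunit on the membrane arm with the fold of a nucleoside kinase, stood at 43.1 and 43.1 CPM in controls and at 37.9, 32 and 34.5 CPM after deletion (log2 fold change -0.31, SE 0.11, adjusted p = 0.357 with edgeR). Ndufb11, an X-linked membrane-arm subunit, stood at 73.7 and 62.4 CPM, compared with 60.3, 50 and 52 CPM (log2 fold change -0.33, SE 0.12, adjusted p = 0.376 with edgeR). In both genes the groups did not overlap and replicate 1 was the highest of the deleted libraries. Of the exons of Ndufb11, 12.9% overlap Rbm10 on the opposite strand, and the use of strand in counting is not given in the sources used here.

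Among the core subunits, Ndufv1, which binds flavin and oxidizes NADH, was 72.5 and 64.5 CPM in controls and 72.9, 57.8 and 57.3 CPM in Igf1r-deleted libraries, so the groups overlapped (log2 fold change -0.13, SE 0.14). Ndufs1, the largest core subunit, was 30.7 and 29.5 CPM, compared with 32.6, 32.1 and 29.6 CPM (log2 fold change 0.06, SE 0.10, 95% interval -0.17 to 0.29). The core subunits thus did not differ in 1 direction. Highest in complex I was Ndufa5, an accessory subunit of the peripheral arm, at 8.50 and 6.55 CPM, compared with 8.42, 9.33 and 7.71 CPM (log2 fold change 0.17, SE 0.19), within the spread of the libraries. In 2 accessory genes, Ndufa11 and Ndufv3, both controls were below every deleted library. In Ndufa11 the nearest libraries of the groups stood at about 7 CPM each (log2 fold change 0.13, SE 0.17). Ndufv3 was 58.2 and 60.5 CPM, compared with 63.3, 67.6 and 64.8 CPM (log2 fold change 0.14, SE 0.09). Both were picked out for this order of the libraries.

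Complex II, succinate dehydrogenase, is also an enzyme of the TCA cycle, and it was the only complex with more members higher than lower in this fit, with a median of -0.02 to 0.10 across the alternatives. Sdha, its flavoprotein, was 123 and 126 CPM in controls and 130, 126 and 121 CPM in Igf1r-deleted libraries (log2 fold change 0.02, SE 0.09, 95% interval -0.20 to 0.23). Sdhb, the iron-sulfur subunit, was 23.0 and 23.6 CPM, compared with 27.9, 27.3 and 24.5 CPM, all above both controls (log2 fold change 0.19, SE 0.11, unadjusted p = 0.118, adjusted p = 0.485 with edgeR). The membrane anchors gave 0.04 (Sdhc, SE 0.10) and -0.18 (Sdhd, SE 0.11). Sdhd was 85.5 and 77.8 CPM, compared with 79.5, 68.4 and 68.5 CPM, with overlap. The median of the 4 genes was 0.03, and all 4 intervals lay within 0.5 of 0; the difference between complex II and the other complexes was not tested.

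In complex III, 6 members were lower and 3 higher, with a median of -0.03. Uqcrfs1, the Rieske iron-sulfur protein, was 101 and 86.1 CPM in controls and 82.7, 75.1 and 76.3 CPM after deletion, without overlap (log2 fold change -0.26, SE 0.11, unadjusted p = 0.0458, adjusted p = 0.398 with edgeR). Without control replicate 1, the higher of the controls, this was -0.15 with an unadjusted p of 0.278. Uqcrh, the acidic hinge protein that helps cytochrome c dock, was 23.9 and 20.9 CPM, compared with 20.2, 17.9 and 17.4 CPM (log2 fold change -0.27, SE 0.13). Cyc1, cytochrome c1, was 56.9 and 55.3 CPM, compared with 66.9, 55.7 and 54.6 CPM, with the highest value in Igf1r-deleted replicate 1 (log2 fold change 0.07, SE 0.12). Uqcrc1, a core protein, was 62.0 and 59.3 CPM, compared with 65.4, 59.5 and 53.3 CPM (log2 fold change -0.03, SE 0.11). Both overlapped between groups. Uqcrb, a small subunit near the ubiquinone site, was the highest, at 12.9 and 11.8 CPM, compared with 15.5, 13.7 and 15.7 CPM (log2 fold change 0.27, SE 0.14, adjusted p = 0.445 with edgeR). Of the 31-base words of its transcript 58.2% occur in other genes, including 4 pseudogenes, so its counts are uncertain. The median of complex III was 0.04 on library totals, with the replicate block, without Igf1r-deleted replicate 3 and with the length and GC trend removed, and -0.15 without replicate 1.

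In complex IV, 12 of 14 tested members were lower, with a median of -0.17. This was the lowest of the 5 complexes in the reported fit, but with the length and GC trend removed it was -0.05, and complex I was then lowest at -0.06. Cox4i1, its largest nuclear subunit, was 187 and 174 CPM in controls and 156, 132 and 132 CPM in Igf1r-deleted libraries. All 3 were lower than both controls, with means of 140 ± 14.1 CPM (SD, n = 3) and 180.3 ± 8.73 CPM (SD, n = 2). The log2 fold change was -0.36 (SE 0.11, unadjusted p = 0.0135, adjusted p = 0.354 with edgeR; adjusted p = 0.115 with DESeq2), and -0.46 to -0.29 across the alternatives. The gene lies on chromosome 8 from 120668222 to 120674207 and has 5 exons. Cox6a1, a subunit of the dimer interface, was 56.9 and 51.9 CPM, compared with 51.4, 46.8 and 43.1 CPM, again without overlap (log2 fold change -0.21, SE 0.11, adjusted p = 0.467 with edgeR). Cox5a was 9.10 and 10.1 CPM, compared with 10.4, 7.97 and 8.18 CPM (log2 fold change -0.12, SE 0.18), and 41.7% of its exons overlap a gene on the opposite strand. Cox5b was 4.81 and 4.53 CPM, compared with 5.50, 3.65 and 5.51 CPM (log2 fold change 0.06, SE 0.25). The groups overlapped in both.

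Several complex IV subunits exist as alternative forms, and in 5 of the 6 groups of forms compared here the widely expressed form held at least 92.4% of the counts in every library, Cox6b being the exception. Cox4i2, the oxygen-responsive form known from lung, made up 0.96% to 3.94% of the Cox4i counts, with its highest level, 5.41 CPM, in Igf1r-deleted replicate 2 and 1.7 to 3.19 CPM in the other 4 libraries. Its log2 fold change of 0.35 (SE 0.52) became -0.29 without that library. The muscle forms were low. Cox7a1 held 4.18% to 7.56% of the Cox7a counts, Cox8b 0.26% to 0.84% of the Cox8 counts, and Cox6a2 at most 0.55% of the Cox6a counts. Both Cox7a1 (27 and 19 counts in controls, 13, 18 and 16 after deletion; log2 fold change -0.61, SE 0.48) and Cox8b (26 and 18 counts, then 9, 14 and 15; log2 fold change -0.85, SE 0.51) were lower in all 3 deleted libraries, at counts too low for a firm difference. Cox6b2, a form known from testis, held 25.5% to 41.0% of the Cox6b counts, at 7.88 to 13.7 CPM. The difference in Cox6b2 rested on control replicate 1 (log2 fold change -0.33, SE 0.24, and 0.05 without that library). Cox6b1 (log2 fold change -0.12, SE 0.14), Cox7a2 (-0.24, SE 0.18), Cox7b (-0.11, SE 0.21) and Cox8a (-0.07, SE 0.11) had overlapping groups. The 3 members that did not pass the filter were all alternative forms: Cox6a2 had 11 and 0 counts in controls and 0, 9 and 4 after deletion, Cox7b2 had 5 and 0 and then 4, 1 and 0, and Cox8c had 0 counts in every library, where a count of 0 allows up to 3 counts per library.

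**Figure D3:**
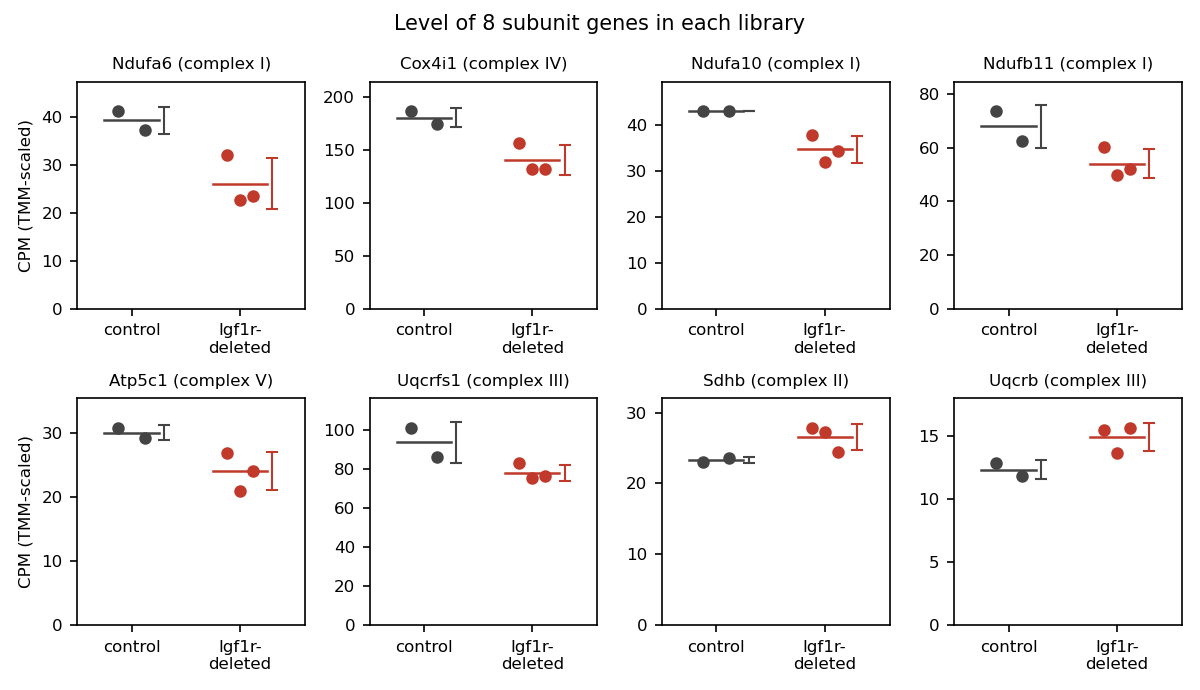
Level (CPM on TMM-scaled library sizes, axes from 0) of 8 subunit genes in each library, with the group mean as a line and the SD as a bar (2 control, 3 Igf1r-deleted libraries). The first 6 genes are those with an unadjusted p under 0.05, in all of which the deleted libraries lie below both controls; Sdhb and Uqcrb lie above them.

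In complex V, 14 of 17 members were lower, with a median of -0.12. The 5 subunits of the F1 head, which makes ATP, were all lower, with log2 fold changes from -0.32 to -0.05. Atp5c1, the gamma subunit that turns inside the head, was 30.9 and 29.2 CPM in controls and 27.0, 21.0 and 24.0 CPM after deletion, without overlap (log2 fold change -0.32, SE 0.13, unadjusted p = 0.0376, adjusted p = 0.391 with edgeR). Atp5a1, the alpha subunit, was 508 and 487 CPM, compared with 470.1, 409 and 398 CPM, also without overlap (log2 fold change -0.22, SE 0.11, adjusted p = 0.453 with edgeR). Atp5b, the catalytic beta subunit, was 404 and 401 CPM, compared with 446, 367 and 353 CPM, with the highest value of all in Igf1r-deleted replicate 1 (log2 fold change -0.05, SE 0.13). Thus alpha and beta, which are built into the head in equal number, did not show the same order of libraries.

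Of 10 members of the stalks and membrane part, 8 were lower, with a median of -0.12. Atp5g3 gave most of the counts of subunit c, 86.5% to 87.3% of the Atp5g sum in every library, and was 97.3 and 95.7 CPM, compared with 102, 85.3 and 86.2 CPM (log2 fold change -0.08, SE 0.11). Atp5g2, with 6.30% to 8.53%, was 9.56 and 8.81 CPM, compared with 7.40, 7.59 and 7.21 CPM, all below both controls (log2 fold change -0.31, SE 0.15, adjusted p = 0.442 with edgeR). Atp5g1, with 4.65% to 6.42%, was 5.21 and 5.81 CPM, compared with 7.54, 5.16 and 6.26 CPM (log2 fold change 0.20, SE 0.22). All 31-base words of Atp5g2 and 67.3% of those of Atp5g1 occur in other genes, including 2 pseudogenes and 1 pseudogene, and 0% of those of Atp5g3. The counts of Atp5g1 and Atp5g2 are therefore uncertain. Between the 3 genes themselves, the longest identical run over the coding bases of the mature protein was 20 bases, shorter than such a word. Lowest was Atp5k (subunit e) with 20 and 18 counts in controls and 7, 11 and 20 after deletion (log2 fold change -0.63, SE 0.59), and highest was Atp5j2 (subunit f) at 4.61 and 5.24 CPM, compared with 5.98, 5.10 and 5.96 CPM (log2 fold change 0.21, SE 0.20). Both lay within the spread of the libraries. Of the 2 members that are not parts of the enzyme, Atp5sl had a log2 fold change of -0.26 (SE 0.17) and Atp5s of 0.15 (SE 0.19).

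Within a complex the counted levels per length spread far more than the genotypes differed. Per kb of transcript, the mean over the 5 libraries ran from 3.44 CPM (Ndufb4) to 83.5 CPM (Ndufc2, a small membrane-arm subunit) in complex I, a ratio of 24.3. It ran from 22.1 (Sdhb) to 61.7 CPM per kb (Sdhd) in complex II, from 8.23 (Uqcr11) to 93.9 CPM per kb (Uqcrq) in complex III, from 1.06 (Cox7a1) to 210 CPM per kb (Cox4i1) in complex IV, and from 1.13 (Atp5k) to 206 CPM per kb (Atp5b) in complex V. Subunits that enter an enzyme in equal number could therefore be counted at very different levels, such as Cox5a at 14.2 and Cox5b at 5.55 CPM per kb beside Cox4i1 at 210, or Atp5c1 at 22.7 beside Atp5d at 133 CPM per kb. The transcripts were short, with a median of 720.5 bases against 2750.5 over all tested genes, and a median of the mean exon length of 165 bases against 281.5. For each gene the share of 150-base windows (the length of a read) along its transcript that lay within 1 exon was taken. The median of this share was 27.7% over members, against 60.7% over all tested genes. Members differed widely, such as Cox5a at 0% and Uqcrfs1 at 87.7%. The level per kb was nearly unrelated to that share (Spearman's rho 0.11 across 80 genes). It was lower where more of the transcript is shared with other genes (rho -0.33 across the same genes). Genes with at least 30% of their 31-base words in other genes, 17 of the 80, had a median of 10.1 CPM per kb, and the other 63 a median of 31.8. These genes share the same 5 libraries, and the relations are descriptions. The fold changes were nearly unrelated to either measure (rho 0.08 and -0.04), and 11 of the 17 and 47 of the 63 were lower, with medians of -0.12 in both.

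**Figure D4:**
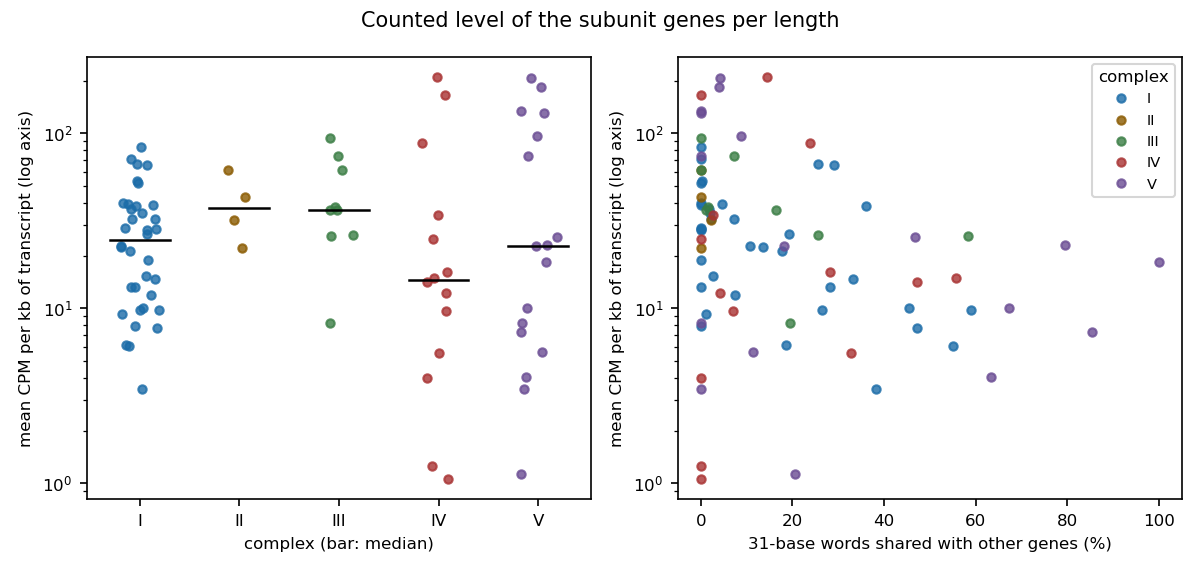
Left, mean level per kb of transcript (CPM per kb over the 5 libraries, log axis) of each tested subunit gene by complex, with the median as a bar; right, the same level against the share of the transcript's 31-base words that occur in other genes. Levels span from 1.06 to 210 CPM per kb, and the genes with large shared parts lie mostly at low levels.

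The lists of genes that serve the chain without being named as its subunits were written with earlier results of these data known. Of 7 tested subunits and carriers outside the name pattern, 3 were lower and 4 higher, median 0.07. Lowest was Cox7a2l, which links complexes III and IV into supercomplexes, at 186 and 156 CPM in controls and 128, 101 and 114 CPM after deletion, without overlap. Its log2 fold change was -0.58 (SE 0.13, unadjusted p = 0.00303, adjusted p = 0.354 with edgeR), and with DESeq2 the adjusted p was 0.0181. Highest was Usmg5, a small synthase subunit, with 0.17 to 0.40 CPM in every library (log2 fold change 0.70, SE 0.67). Cycs was 15.6 and 15.9 CPM, compared with 19.8, 16.3 and 16.0 CPM (log2 fold change 0.14, SE 0.14).

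Genes listed as assembly factors, most of which encode proteins that build the complexes without staying in them, were more often above 0 than below. Of 44 tested, 28 were higher (63.6%) and 16 lower, median 0.06, against 52.3% of all genes above 0. For complex I, 12 of 15 were higher, median 0.12, from -0.29 for Ndufaf6 (SE 0.33) to 0.42 for Ndufaf4. Ndufaf4 was 10.1 and 12 CPM in controls and 13.2, 14.4 and 16.9 CPM in Igf1r-deleted libraries, all above both controls (SE 0.16, unadjusted p = 0.035, adjusted p = 0.384 with edgeR). For complex II, Sdhaf1 gave -0.07 (SE 0.10) and Sdhaf2 0.07 (SE 0.09). For complex III, 4 of 5 were higher, from -0.13 for Lyrm7 (SE 0.39) to 0.30 for Bcs1l (SE 0.17), which inserts the Rieske protein. For complex IV, 11 of 19 were higher, median 0.03. Among the 11 were Lrpprc (0.20, SE 0.14), Taco1 (0.16, SE 0.20) and Fastkd2 (0.20, SE 0.20), which act on mitochondrial RNA or its translation. Coa4, an intermembrane space protein, was the lowest at 2.74 and 2.51 CPM, compared with 1.53, 1.79 and 1.48 CPM (log2 fold change -0.71, SE 0.28, adjusted p = 0.39 with edgeR), and Cox20, a chaperone of a mitochondrially encoded subunit, the highest (0.57, SE 0.35). Cox20 rested on Igf1r-deleted replicate 3, at 7.68 CPM, compared with 3.38 to 4.05 CPM in the other 4 libraries, and was 0.15 without it. The 3 factors for complex V were lower, from -0.17 for Tmem70 (SE 0.11) to -0.02 for Atpaf1 (SE 0.16).

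The regulators of mitochondrial gene expression also leaned higher, 14 of 19, with a median of 0.08. At an unadjusted p under 0.05, 2 were higher and 0 lower (edgeR), against 5.65% of all genes higher, and 0 passed the adjusted test. They were Gabpb1, the partner of GABPA, at 20.6 and 22.7 CPM in controls and 27.4, 26.9 and 28.1 CPM after deletion (log2 fold change 0.34, SE 0.10, adjusted p = 0.354 with edgeR), and Tfam, which packages and transcribes mitochondrial DNA, at 23.4 and 26.3 CPM, compared with 28.6, 31.2 and 31.9 CPM (log2 fold change 0.30, SE 0.11, adjusted p = 0.364 with edgeR). Both were chosen on seeing these values, and in both every deleted library was above both controls. Ppargc1a, the coactivator PGC-1alpha, was the highest of the list, at a low level of 2.33 and 2.05 CPM, compared with 2.58, 3.22 and 3.98 CPM (log2 fold change 0.57, SE 0.29). Polg2, an accessory subunit of the mitochondrial DNA polymerase, was the lowest (-0.31, SE 0.27). Of the factors whose sites were searched, Nrf1 gave 0.07 (SE 0.10), Gabpa 0.04 (SE 0.09), Yy1 -0.12 (SE 0.09) and Esrra -0.02 (SE 0.15). Yy1 was 104 and 107 CPM in controls and 95.1, 96.5 and 99.0 CPM after deletion, all below both controls, and the other 3 factors overlapped.

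The listed TCA cycle enzymes, which lie in the mitochondrial matrix and feed the chain, were balanced, with 7 of 13 lower and a median of -0.01. For 12 of the 13 the 95% interval lay within 0.5 of 0. They ran from Idh3g at -0.19 (SE 0.10) to Idh3a at 0.26 (SE 0.10, unadjusted p = 0.0381, adjusted p = 0.394 with edgeR), which are subunits of the same isocitrate dehydrogenase. Idh3a was 26.5 and 26.2 CPM in controls and 33.9, 29.5 and 31.5 CPM in Igf1r-deleted libraries, all above both controls. Idh3g was 33.0 and 32.7 CPM in controls and 30.4, 28.7 and 27.1 CPM after deletion, all below both. Differences between these lists and the subunits were not tested.

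**Figure D5:**
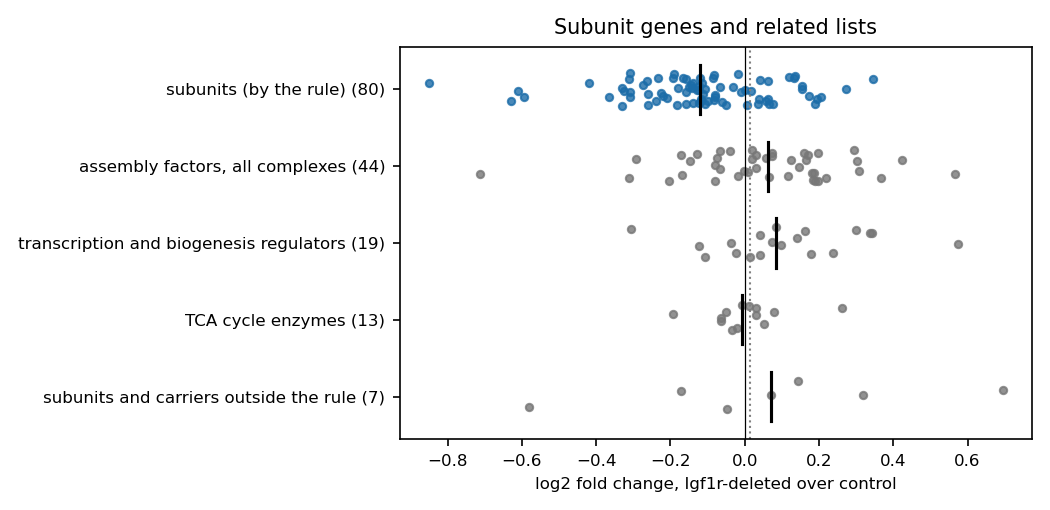
Log2 fold change (Igf1r-deleted over control) of each tested gene in 5 lists, with the number of genes in parentheses and the median as a black bar; the dotted line is the median of all tested genes at 0.01. The median is -0.12 for the 80 subunits, 0.06 for 44 assembly factors, 0.08 for 19 regulators, -0.01 for 13 TCA cycle enzymes and 0.07 for 7 other subunits and carriers.

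Members with the NRF1 letters in their promoter window had a median log2 fold change of -0.18 and 15 of 16 lower, and the 51 tested members without them had a median of -0.11 and 37 lower. With any of the 4 motifs 32 of 37 were lower, median -0.12, and with none 20 of 30, median -0.12. Among the 5 members with an unadjusted p under 0.05 and a promoter window, only Ndufa6 held the NRF1 letters. Over all tested genes 47.7% were lower, and this share was not taken for other genes with the same letters. Whether the presence of a motif goes with the fold change was not tested.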

How the data were processed

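Paired-end reads of 150 bases from 5 libraries were trimmed (Trim Galore), mapped to mm10 (Bowtie2) and assigned to genes (GenomicAlignments) by the authors. The authors deposited raw counts per gene symbol, 1 column per library, without normalization. Tool versions, the annotation and the use of strand are not given in the sources used here. The authors' own criterion used DESeq and FPKM from Cufflinks, which were not used here.

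The test was run in R 4.3.3 with edgeR 4.0.16 on the deposited counts: TMM factors, filterByExpr, quasi-likelihood F test (two-sided), genotype as the only term, Benjamini-Hochberg adjustment over 15298 genes. A prior count of 2 entered log2 CPM. The fit was tested on simulated data. Only differences beyond the spread between libraries can be called, since chi-square per degree of freedom between libraries of 1 genotype was 24.4 to 53.4; with 2 against 3 the smallest permutation p is 0.1. Nothing says that libraries came from separate litters, so p-values measure the spread between these samples. Limits from a count of 0 cover counting error only. Alternatives were DESeq2 1.42.0, other size factors, no filter, each library left out, a replicate block, sex as a term (added after the data were seen) and a loess trend on length and GC removed. Lengths, overlaps and shared words came from GENCODE M21, in which 22112 symbols matched directly and 1000 by an older symbol; 366 did not. The transcript with the longest coding sequence (the shortest of ties) represents a gene. Promoters came from RefSeq GRCm38.p6.

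Members and lists were chosen with earlier results of these data known. Genes named are fixed core subunits and isoform groups, the highest and lowest fold change and the highest level per kb of each complex, members with an unadjusted p under 0.05, members that failed the filter, and the highest and lowest of each related list; any others, such as Sdhc, Atp5d, Cycs and the factors whose motifs were searched, were chosen with their values in view. The values of 1 member are not reported here, and it is left out of the plot of fold changes, though it enters all counts and medians.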

Additional observations from a re-analysis of the deposited data

How the results depend on the processing

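The number of members with a log2 fold change below 0 was 50 to 66 under the 12 alternatives (58 in the reported fit), and no alternative with a test gave a member an adjusted p under 0.05. Library totals in place of TMM moved the median of members from -0.12 to -0.0493 and the share of all tested genes below 0 from 47.7% to 37.3% (members, 65.0%), with the median of all genes at 0.09. Removing a trend on transcript length and GC content gave -0.0470. Sex as a term gave -0.196, a fit in which only Igf1r-deleted replicate 2 is set against controls of its own sex. The causes were not tested. Leaving out 1 library at a time gave medians of -0.193 to -0.0737 and 1 to 17 members at an unadjusted p under 0.05. Igf1r was lower in every alternative (-1.04 to -0.81) and passed the adjusted test with DESeq2 (log2 fold change -0.94, adjusted p = 1.06e-05) and with the replicate block (-1.04, adjusted p = 0.0139). The genotypes share only the numbers 1 and 2, and nothing says that these mark pairs (correlations of deviations 0.21 and 0.12). With the replicate block the median of members was -0.0747, with 55 lower (68.8%, all genes 48.8%) and 5 at an unadjusted p under 0.05 (6.25%, all genes 13.4%).

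Some named genes changed sign, including Cox4i2 and Cox6b2, and none of these passed the adjusted test. Library totals gave 0.0404 for Uqcrc1, 0.0183 for Atp5b, 0.00246 for Cox8a, 0.00900 for Sdhaf1 and 0.0571 for Atpaf1. The replicate block gave 0.0400 for Uqcrc1, -0.0575 for Cox5b, 0.00620 for Atp5b and 0.0538 for Lyrm7. Sex as a term gave -0.0111 for Cyc1, -0.356 for Cox5b, -0.0967 for Atp5g1 and -0.0456 for Uqcrq. The length and GC trend gave -0.00260 for Sdha, 0.0234 for Cox8a, 0.0102 for Atp5g3 and 0.0124 for Atp5j. Leaving out a library gave -0.0129 to 0.0397 for Sdha, -0.0299 to 0.125 for Cyc1, -0.111 to 0.0385 for Uqcrc1, -0.0371 to 0.232 for Cox5b, -0.167 to 0.0104 for Atp5b, -0.288 to 0.803 for Cox4i2, -0.284 to 0.0419 for Cox6b1, -0.647 to 0.0487 for Cox6b2, -0.313 to 0.0163 for Cox7b, -0.153 to 0.00669 for Cox8a, -0.0114 to 0.369 for Ndufa5, -0.0325 to 0.101 for Uqcrq, -0.398 to 0.188 for Lyrm7 and -0.105 to 0.0323 for Atpaf1.

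Few counts limit what can be said of Cox7a1, Cox8b, Cox6a2, Cox7b2, Atp5k and Usmg5, and why their counts were low was not tested. How reads across exon junctions or shared with pseudogenes were counted is not given in the sources used here. The trend removal gives no p-value, so it has no count of tests.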
